A study of Homo sapiens with 6 samples.

Results

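A set of 6 genes of chromosome replication and segregation was lower in HCCLM3 cells given ginkgolic acid than in cells given the vehicle DMSO. They are CDC45, GINS2 and GINS4 of the replicative helicase, the checkpoint adaptor CLSPN, the ribonucleotide reductase subunit RRM2 and the kinetochore protein SPC25. They are 6 of the 403 genes in the comparison table that the authors deposited, and 6 of the 150 genes that were lower there. All 6 were chosen from that table by their gene names, with their fall in these same libraries already known. The differences between the groups are therefore a description here, with no test.

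HCCLM3 is a wild-type human hepatocellular carcinoma line known for its metastatic behaviour in mice. One group received 10 µM ginkgolic acid, a salicylic acid with a long alkyl chain from Ginkgo biloba, for 24 h. The other received DMSO for 24 h, and each group had 3 libraries made from total RNA. The labels do not say whether the libraries of a group came from separate cultures, so the spread between them may be technical. The values, called normalised read counts below, behave as reads per gene divided by a size factor of each library. Reads were inferred from the step between values, and on that reading 62 to 441 reads lay behind a single value of these genes.

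During S phase the double-stranded DNA of each origin is opened by a helicase built from the MCM ring, CDC45 and the GINS complex. Claspin, the product of CLSPN, travels with the fork and carries the signal from the kinase ATR to CHK1 when the fork stalls. Ribonucleotide reductase makes the deoxyribonucleotides that the polymerases consume, and RRM2 is its small subunit in cycling cells. SPC25 belongs to the NDC80 complex, which couples the kinetochore to spindle microtubules in mitosis. Transcripts of such genes are known to be most abundant in cycling cells. E2F factors raise them in late G1 and S phase. NF-Y at CCAAT elements and MuvB complexes at CHR elements do so later in the cycle.

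The promoters are shown because these elements are the ones known for genes of this class. A promoter of 300 bases, 250 before the gene start and 50 from it on, was found for 5 of the 6 genes in RefSeq (GRCh38.p14), and GINS4 had no entry. Where RefSeq lists several starts, 3 for CDC45 and 2 for RRM2, the first listed was taken. Gene start means this RefSeq start, which can differ from the outer end of the gene whose reads were counted. The promoters of CDC45, GINS2, RRM2 and SPC25 lay inside the counted span of their gene. For SPC25 on the minus strand that span reaches 168913371, well beyond the promoter. Searched on both strands were CCAAT, the E2F motif in the forms TTTGGCGC, TTTCCCGC, TTTCGCGC and TTTGCCGC, its shorter forms TTCCCGC and TTGGCGC, and the CHR forms TTTGAA and TTCGAA. The short forms TTCCCGC and TTGGCGC lie inside TTTCCCGC and TTTGGCGC, so a match of those longer forms is also a match of the shorter. Capitals mark every match, and each sequence is written 5′ to 3′ on the strand of its gene. CDC45 (chr22:19479670-19479969, plus strand) held the most CCAAT matches, CLSPN (chr1:35769929-35770228, minus strand) held CCAAT beside an E2F match, and SPC25 (chr2:168890381-168890680, minus strand) held all 3 kinds.
CDC45: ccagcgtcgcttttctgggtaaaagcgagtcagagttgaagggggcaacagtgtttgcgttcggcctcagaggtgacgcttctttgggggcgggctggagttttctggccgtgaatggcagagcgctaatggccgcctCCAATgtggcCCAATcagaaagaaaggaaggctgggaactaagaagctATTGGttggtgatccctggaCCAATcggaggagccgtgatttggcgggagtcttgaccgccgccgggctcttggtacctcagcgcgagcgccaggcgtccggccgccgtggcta
CLSPN: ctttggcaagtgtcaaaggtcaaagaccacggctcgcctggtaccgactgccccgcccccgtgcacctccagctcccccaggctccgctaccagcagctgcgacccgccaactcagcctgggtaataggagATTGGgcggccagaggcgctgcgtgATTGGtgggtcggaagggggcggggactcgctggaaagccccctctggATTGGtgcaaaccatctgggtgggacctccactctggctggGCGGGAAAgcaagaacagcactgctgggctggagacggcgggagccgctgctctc
SPC25: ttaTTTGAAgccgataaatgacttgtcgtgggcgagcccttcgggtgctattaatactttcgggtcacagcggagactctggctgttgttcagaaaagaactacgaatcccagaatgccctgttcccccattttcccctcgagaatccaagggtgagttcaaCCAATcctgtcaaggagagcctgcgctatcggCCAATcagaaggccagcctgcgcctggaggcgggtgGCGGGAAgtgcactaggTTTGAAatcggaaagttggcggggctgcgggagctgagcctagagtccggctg

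CCAAT was present in all 5 promoters, against 35.7% of the 27305 human promoters of the same length with 1 taken per gene. CDC45 had 4 copies, at -112, -102, -64 and -44 (first base of each match, with the gene start as 0). CLSPN had 3 copies, at -119, -94 and -46, and RRM2 had 3, at -123, -93 and -66. SPC25 had 2, at -88 and -56, and GINS2 had 1, at -158. So 4 of the 5 held at least 2 copies, against 11.3% of all promoters, and 3 held at least 3 copies, against 3.42%. Among the 71 other lower genes with a promoter entry, 17 held CCAAT at least once (23.9%), 4 held at least 2 copies and 0 held at least 3. The number of copies was looked at after the matches had been seen. The CCAAT shares, and the E2F and CHR shares below, were not compared with replication genes that did not fall. They may therefore belong to the class of gene, and a part of these elements in the fall was not tested.

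The longer E2F form was found in 2 of the 5, CLSPN at -5 and GINS2 at -31, against 3.33% of all promoters and 3 of the 71 other lower genes. The shorter form added SPC25 at -20, which made 3 of 5 against 9.33% of all promoters. Near variants of these letters were not searched. The CDC45 promoter holds one, TTTGGCGG, in small letters, so the lack of a match there does not show that an E2F element is absent. A CHR form was found in SPC25 alone, at -247 and at -3, against 16.6% of all promoters. Near variants of the CHR forms were not searched either, so the other promoters are not shown to lack such an element. GC content ran from 55.3% in SPC25 to 78.3% in GINS2, and the median of all promoters was 58.3%. A match of letters is not a bound site, and the files hold no binding data.

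**Figure D1:**
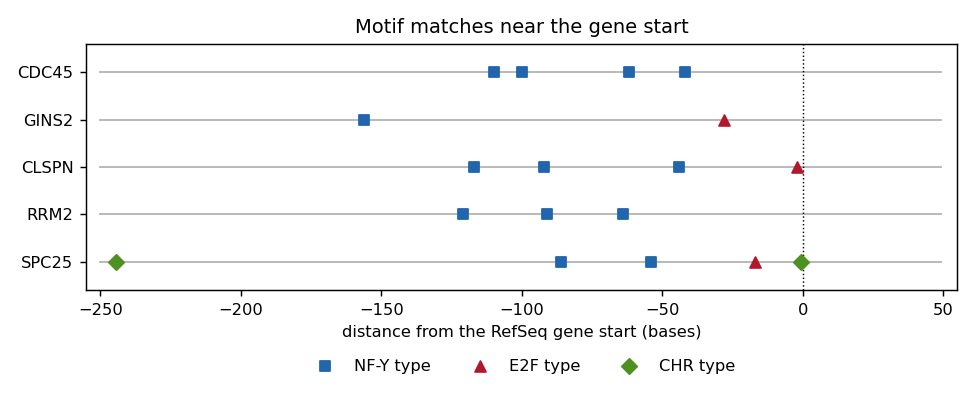
Each line is the promoter of 1 gene from 250 bases before to 49 after the RefSeq gene start (x axis, bases; dotted line, the start), and symbols mark the centres of matches to the NF-Y type (CCAAT), E2F type (short forms) and CHR type motifs. The 4 genes CDC45, CLSPN, RRM2 and SPC25 each carry 2 to 4 NF-Y type matches, all between -123 and -40.

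In each of the 6 genes the highest ginkgolic acid library lay below the lowest DMSO library, and the level left with ginkgolic acid was 42.1% to 49.6% of the DMSO mean. Among all 403 genes, 36.7% were lower with no overlap between the groups, and since the 6 were chosen from the lower genes their count says nothing more. In bulk RNA, fewer cells in S phase or mitosis and less of each transcript per cell cannot be told apart. The authors' adjusted p-values imply that 16104 genes were tested, of which the 150 lower ones are 0.931%.

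CDC45, a subunit of the helicase, had 279.3, 268.8 and 243.6 normalised read counts in DMSO replicates 1 to 3. With ginkgolic acid it had 128.2, 143.4 and 116.7. The groups stood well apart, with the lowest DMSO value 1.70 times the highest ginkgolic acid value. The means were 263.9 ± 18.3 and 129.4 ± 13.4 (SD, n = 3 each), and the limma fit gave -1.02 (SE 0.13) as log2 fold change. GINS2, also called PSF2, had 243.2, 204.0 and 233.6 in DMSO and 128.2, 97.7 and 92.2 with ginkgolic acid. Ginkgolic acid replicate 1 was its highest treated library, and the lowest DMSO value was still 1.59 times higher. Its means were 226.9 ± 20.4 and 106.0 ± 19.4, a log2 fold change of -1.10 (SE 0.16).

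GINS4, also called SLD5, had 216.2, 228.8 and 248.6 in DMSO and 107.0, 133.6 and 100.9 with ginkgolic acid. Here replicate 2 was the highest treated library, and the gap to the lowest DMSO value was 1.62-fold. The means were 231.2 ± 16.3 and 113.9 ± 17.4, a log2 fold change of -1.02 (SE 0.15). GINS2 and GINS4 sit in the same complex, and their ratio of normalised read counts was 0.981 in DMSO (0.892 to 1.125) and 0.928 with ginkgolic acid (0.732 to 1.198). These ranges overlapped, and the log2 ratio differed by -0.08 (SE 0.23) between the groups. The ratio of CDC45 to GINS4 was 1.14 in both groups, with an SE of 0.13 for the difference in log2 ratio.

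CLSPN had 265.2, 305.0 and 250.6 normalised read counts in DMSO and 167.5, 118.4 and 121.1 with ginkgolic acid. Ginkgolic acid replicate 1 stood above the other two, and the gap to the lowest DMSO library was 1.496-fold, the narrowest of the 6 genes. The means were 273.6 ± 28.2 and 135.6 ± 27.6, a log2 fold change of -1.02 (SE 0.16).

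RRM2 was the most abundant of the 6 by read count and fell furthest. It had 358.3, 420.4 and 361.4 in DMSO and 181.2, 168.3 and 130.8 with ginkgolic acid. All treated libraries lay below all DMSO libraries, and the lowest DMSO value was 1.98 times the highest of them. The means were 380.0 ± 35.0 and 160.1 ± 26.2, a log2 fold change of -1.25 (SE 0.14). SPC25 had the fewest reads and the tightest libraries, with 174.2, 164.9 and 181.7 in DMSO and 75.2, 67.3 and 80.7 with ginkgolic acid. Its gap was the widest at 2.04-fold, and its means were 173.6 ± 8.40 and 74.4 ± 6.74, a log2 fold change of -1.21 (SE 0.15).

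**Figure D2:**
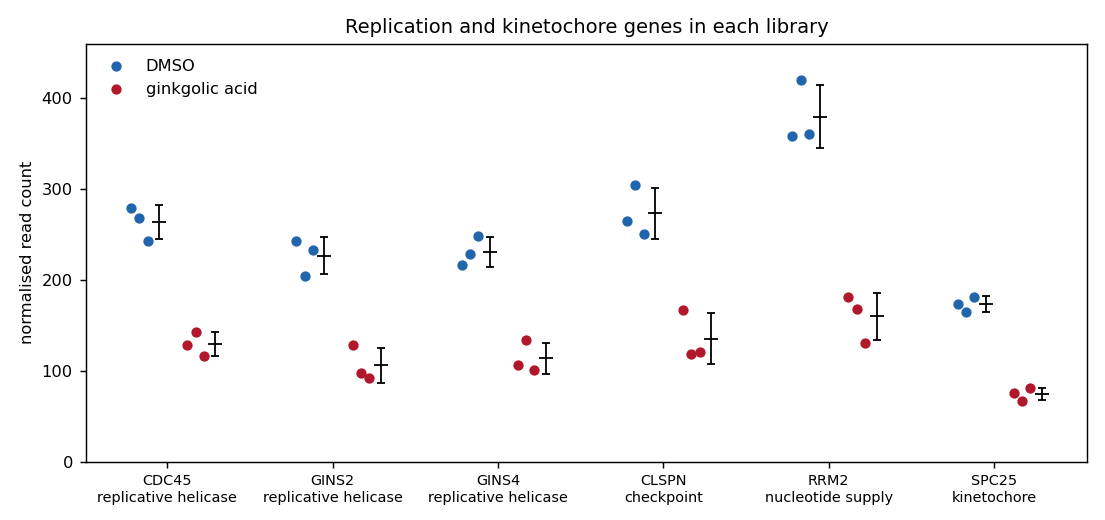
Normalised read count (y axis) of each gene in the 3 DMSO (blue) and 3 ginkgolic acid (red) libraries, with the mean and SD of each group in black. In all 6 genes every red point lies below every blue point, from 67.3 to 80.7 against 164.9 to 181.7 for SPC25 up to 130.8 to 181.2 against 358.3 to 420.4 for RRM2.

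Over the 4 roles the log2 fold changes of the limma fit ran from -1.25 to -1.02, a spread of 0.23 with SEs of 0.13 to 0.16 per gene. This spread was 0.36 without ginkgolic acid replicate 1, 0.36 without replicate 2, and 0.31 or more with any single library left out. RRM2 and SPC25 had the larger falls, and CDC45, GINS4 and CLSPN lay together at -1.02. In ratios taken within each library, 0 of the 15 pairs of these genes separated the groups without overlap. Of the 153 pairs among the 18 other lower genes with a mean between 100 and 300 normalised read counts, 42 did (27.5%). Those 18 genes had a wider range of the authors' log2 fold change, from -2.54 to -1.03, against -1.25 to -1.02 for the 6. Their pairs could thus separate more easily, and the 2 shares do not show that the 6 were unusually uniform. The median absolute difference in log2 ratio was 0.12 over the 15 pairs and 0.21 over the 153.

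The largest difference between any pair was that of CLSPN to RRM2. Their ratio was 0.719 in DMSO (0.693 to 0.740) and 0.844 with ginkgolic acid (0.703 to 0.926), a log2 difference of 0.23 (SE 0.13). The ratio of CDC45 to RRM2 went from 0.695 to 0.813, with a log2 difference of 0.23 (SE 0.13), and RRM2 to SPC25 from 2.19 to 2.14. Of the 15 differences, 0 exceeded 2 times their SE. With 3 libraries per group and 62 to 441 reads a value, differences of this size between the genes were not resolved. The genes are not shown to have fallen equally. The 6 genes all had to pass the authors' limit of 1 on the log2 scale, which sets one end of their range.

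**Figure D3:**
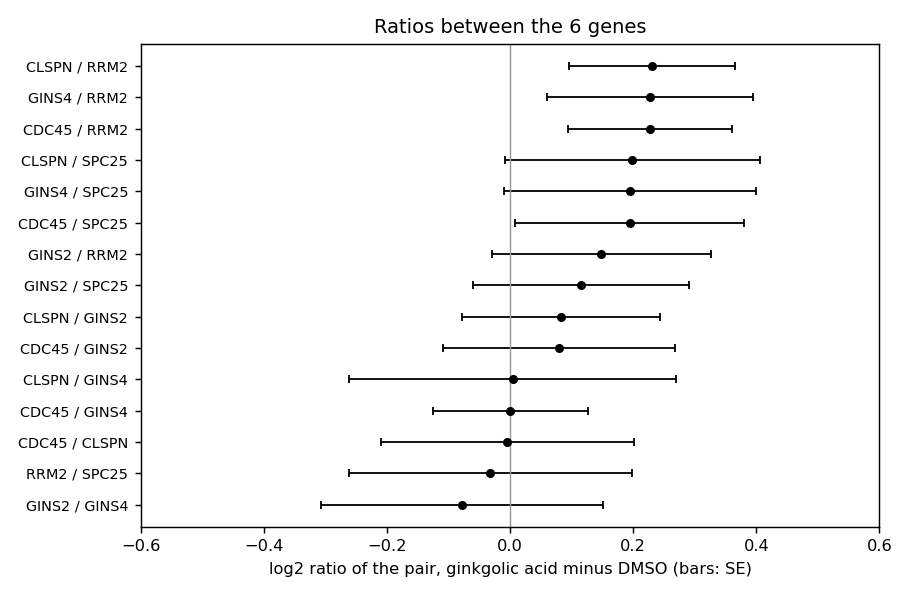
Difference between ginkgolic acid and DMSO in the log2 ratio of each pair of the 6 genes (x axis), with bars for the SE (n = 3 libraries per group). Points run from -0.08 for GINS2 to GINS4 up to 0.23 for CLSPN to RRM2.

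That limit lies close to 4 of the genes. The authors' deposited table gave log2 fold changes of -1.02 for CLSPN, -1.03 for GINS4, -1.03 for CDC45, -1.10 for GINS2, -1.22 for SPC25 and -1.25 for RRM2. The lower gene nearest to the limit in the whole table was EXOC3-AS1 at -1.01. Genes just past it on the other side are not analysed here. Ordered by fall among the 150 lower genes, RRM2 was number 84, SPC25 number 93, GINS2 number 125, CDC45 number 140, GINS4 number 142 and CLSPN number 147. Their median was -1.07, beside -1.30 for all 150 lower genes and -1.24 for the 18 others with a mean between 100 and 300. By mean read count the 6 ranked between 20 and 36 of the 150.

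**Figure D4:**
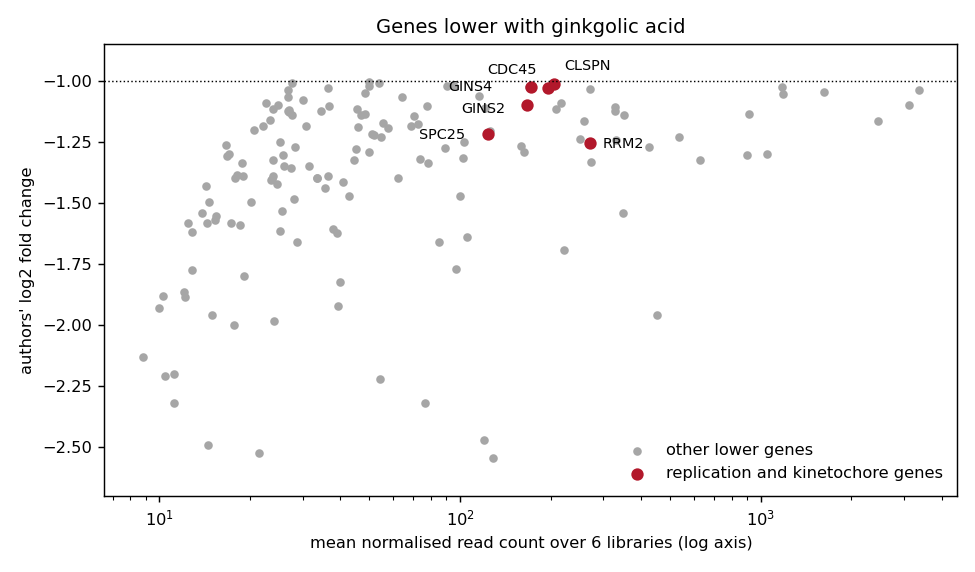
Mean normalised read count over the 6 libraries (x axis, log scale) against the authors' log2 fold change (y axis) for the 150 lower genes, with the 6 replication and kinetochore genes in red and the authors' limit dotted. The red points lie between -1.25 and -1.02, at means of 124.0 to 270.1.

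The SD between libraries was smaller with ginkgolic acid in each gene except GINS4, and relative to the lower means it was larger. The coefficient of variation was 9.05% to 20.3% with ginkgolic acid and 4.84% to 10.3% in DMSO, and it was higher with ginkgolic acid in each of the 6 genes. Among the 18 other lower genes of like read count it was higher with ginkgolic acid in 12. A lower count also raises the share of counting error in this coefficient. The SD exceeded that of counting alone, taken from the inferred reads, in 5 of the 6 genes in each group, and in 10 (ginkgolic acid) and 12 (DMSO) of the 18 others. SPC25 lay below it in both groups (6.74 against 8.64, and 8.40 against 13.1).

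No ginkgolic acid library was the highest or the lowest for all 6 genes. Ginkgolic acid replicate 1 was the highest treated library for 3 of them, replicate 2 for 2 and replicate 3 for 1 (SPC25). Ginkgolic acid replicate 3 was the lowest for 4 and replicate 2 for the other two, while each of these was the lowest in 38.9% of the 36 other lower genes with a mean of at least 100. The level left ran from 43.4% (SPC25) to 61.2% (CLSPN) of the DMSO mean in replicate 1, from 38.8% (SPC25) to 57.8% (GINS4) in replicate 2 and from 34.4% (RRM2) to 46.5% (SPC25) in replicate 3. The medians were 48.1%, 43.8% and 43.9%. Summed over the 6 genes, the libraries had 787.5, 728.7 and 642.4 normalised read counts with ginkgolic acid, against 1536.4, 1591.9 and 1519.3 in DMSO.

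Replicate 1 was also closest to DMSO in genes outside this set. Among the 36 other lower genes with a mean of at least 100 it was the highest treated library in 55.6%, with a median of 46.9% of the DMSO mean against 40.3% and 41.6% in replicates 2 and 3. Among the 60 higher genes with such a mean it was the lowest treated library in 58.3%, with a median of 220.3% against 237.0% and 245.9%. Its part in the results was not tested. Without it the median log2 fold change of the 6 genes was -1.20, and without replicate 3 it was -0.98, where CDC45, GINS4 and CLSPN lay above -1.

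**Figure D5:**
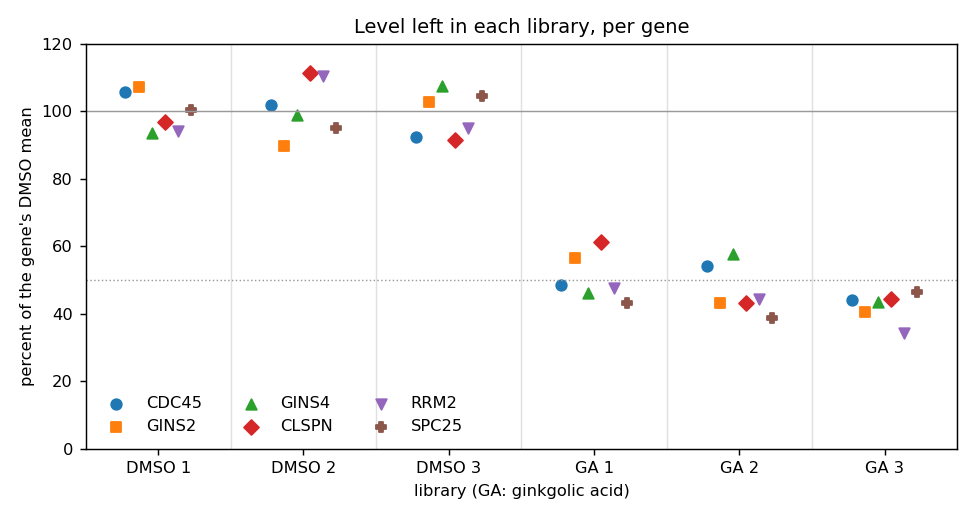
Level of each gene in each library as a percent of that gene's DMSO mean (y axis), with lines at 100 and 50. The DMSO libraries lie between 89.9% and 111.5% and the ginkgolic acid libraries between 34.4% and 61.2%.

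Levels of different genes were compared per length, as normalised read counts per kilobase of the exon length in the table. These lengths were equal to the union of all annotated exons, which can exceed the transcript in use. In DMSO, SPC25 (94.3) and CDC45 (92.7) had the highest values per length, and their libraries overlapped (89.6 to 98.7 and 85.6 to 98.1). RRM2 (71.4) and GINS2 (69.5) followed and overlapped as well (67.3 to 79.0 and 62.5 to 74.5). CLSPN (50.6, from 46.3 to 56.4) lay above GINS4 (42.2, from 39.5 to 45.4) with no overlap. With ginkgolic acid the order was CDC45 (45.5), SPC25 (40.4), GINS2 (32.5), RRM2 (30.1), CLSPN (25.1) and GINS4 (20.8), and each overlapped its neighbour. On this scale the helicase subunits GINS2 and GINS4 did not overlap in either group. They ran from 62.5 to 74.5 against 39.5 to 45.4 in DMSO, and from 28.2 to 39.3 against 18.4 to 24.4 with ginkgolic acid. Their read counts were close, with a ratio of 0.981 in DMSO and 0.928 with ginkgolic acid. The difference therefore comes from the annotated lengths of 3264 and 5475 bases, and a difference in transcript level is not shown. The places of the other genes depend on these lengths too. SPC25 had the fewest reads and a length of 1841 bases, and RRM2 had the most reads and a length of 5323 bases.

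The 6 genes lie on 5 chromosomes, at the positions the table gives (GRCh38, equal to GENCODE release 29). CDC45 spans chromosome 22 from 19479459 to 19520612 on the plus strand, and no other annotated gene overlaps it. GINS2 spans chromosome 16 from 85676198 to 85690073 on the minus strand, and 7 of its exon bases are shared with GSE1 on the other strand. CLSPN spans chromosome 1 from 35720218 to 35769967 on the minus strand, and 5.17% of its exon bases are shared with the antisense transcript AL354864.1. SPC25 spans chromosome 2 from 168834132 to 168913371 on the minus strand, and shares no exon base with NOSTRIN and G6PC2 on the other strand.

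The reads of 2 genes are less certain. RRM2 spans chromosome 2 from 10120698 to 10131419 on the plus strand, and 1077 of its 5323 exon bases (20.2%) are shared with the protein-coding gene AC007240.1 on the same strand. GENCODE also lists 3 RRM2 pseudogenes, between which similar reads could be split. GINS4 spans chromosome 8 from 41529206 to 41545046 on the plus strand, and 1159 of its 5475 exon bases (21.2%) are shared with the antisense transcript AC009630.2. The sources used here do not state whether counting used strand, so reads from this pair cannot be separated.

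The other genes of these processes were looked up in 10 lists of 192 genes, all of which matched a GENCODE symbol. The 6 genes above were chosen from the table, so their presence in these lists is not independent of that choice. The lower side of the table holds 0.931% of the genes tested. Of the 11 helicase genes it held CDC45, GINS2 and GINS4. GINS1, GINS3 and the 6 MCM subunits were not among the 403 genes. It held 1 of 13 checkpoint and fork protection genes (CLSPN) and 1 of 22 outer kinetochore genes (SPC25), and RRM2 from the nucleotide supply list.

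Of the remaining 6 lists the table held no gene. They cover 17 genes of origin licensing and firing, 27 of the polymerases and fork proteins, 20 of the inner kinetochore, 18 mitotic proliferation markers, 31 of E2F, RB and CDK control and 19 of recombination and fork repair. Genes outside the table are not analysed here. A gene entered it only with an absolute log2 fold change above 1 and an adjusted p-value under 0.05, so this does not show that they were unchanged.

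Of the cell type markers, the table held 1 of 10 hepatoma genes and none of 7 fibroblast, 7 leukocyte or 6 endothelial genes, so the labelled cell type could not be checked against a panel. The hepatoma gene was ALB, at 16.0, 15.3 and 26.0 normalised read counts in DMSO and 7.42, 7.60 and 0.878 with ginkgolic acid.

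The genes most like the 6 in pattern were sought among the 96 other genes with a mean of at least 100, by Pearson correlation of log2 values over the 6 libraries with the mean of the 6 genes. The first 5 were ANXA10 (r = 0.998), KYNU (0.997), DUSP6 (0.995), CPLX2 (0.994) and MMP1 (0.993), an annexin, a tryptophan catabolic enzyme, an ERK phosphatase, a synaptic complexin and a collagenase. Each of the 6 genes itself correlated with their mean, of which it is a part, at 0.966 to 0.990. The 5 genes had DMSO means of 720.2 (CPLX2) to 4233.5 (ANXA10), against 173.6 (SPC25) to 380.0 (RRM2) among the 6. Their r is therefore not compared with that of the 6. The libraries share treatment and size factors and fall into 2 groups, so r follows mainly the group difference, and 30 of the 96 reached 0.95. DUSP6 had 1200.1, 1304.9 and 1263.8 normalised read counts in DMSO and 659.2, 538.7 and 521.3 with ginkgolic acid, and 40.5% of its exon bases are shared with an antisense transcript. CPLX2 fell 3.87-fold, more than any of the 6. Within DMSO it was highest in replicate 3 (805.6, against 671.6 and 683.5 in replicates 1 and 2), where the sum of the 6 genes was lowest (1519.3).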

How the data were processed

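RNA-seq of 6 libraries, 3 per group, was used, with groups and replicate numbers from the sample titles. The submitters' processing notes name the build hg38 and the tools DESeq2 1.20.0, featureCounts 1.5.0-p3, HISAT2 2.0.5, fastp and CASAVA 1.8. No settings are named there. The deposited table holds a signal per library, the authors' log2 fold changes and their p-values for 403 genes, all past 1 in absolute log2 fold change and below 0.05 in adjusted p-value. In every library 100% of the signal values were whole multiples of a single step (tolerance 1e-04), as reads divided by a size factor would be. The sum of reads inferred from this step over these genes was 67006 to 98627, and the total depth is unknown. A further deposited table headed FPKM held the same values within 4.6e-08 and was not used. Libraries of a group correlated at r = 0.961 to 0.971 across genes, and every pair differed by more than sampling noise.

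Log2(normalised read count + 1) was fitted over all 403 genes with limma 3.58.1 (R 4.3.3, trended variance prior, mean of at least 1, Benjamini-Hochberg threshold 0.05), after a check on simulated data. No test of the 6 genes is given, since they were chosen on this contrast. An exact permutation test of 3 against 3 libraries cannot go below p = 0.1. Named were the 6 genes, other list genes held by the table and the 5 most alike in pattern. One result under this rule is not reported here. The genes, lists and tests were chosen with earlier results of these data known. Promoters were read from RefSeq. Alternatives changed the pseudocount, filter, scaling, variance prior, replicate block and set of libraries. Tables and figures were made with matplotlib 3.10.9, scipy 1.17.1, pandas 2.3.3 and numpy 2.4.6 in Python 3.11.15.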

Additional observations from a re-analysis of the deposited data

How the results depend on the processing

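The limma fit called 150 genes of the table lower and 253 higher, and the 6 replication and kinetochore genes were lower in it under each of the 12 alternatives run. Rescaling to the median ratio over the 403 genes, which centres the libraries on changed genes, moved log2 fold changes by a median of -0.88. It left 61 genes called higher and put the median of the 6 genes at -1.96 in place of -1.06. Leaving out each library in turn gave a median of -1.20 to -0.98 and a spread among the 6 of 0.31 to 0.36, in place of 0.23. It gave 148 to 150 genes called lower, 250 to 253 called higher and the 6 genes lower each time. CDC45, GINS4 or CLSPN lay above -1 in each of these 6 fits, and GINS4 and CLSPN did so with a pseudocount of 5. With the replicate number as a replicate block the counts were again 150, 253 and 6 and the median was -1.06. For libraries with the same number, the deviations from the group mean had correlations of -0.03, 0.00 and -0.07 over 403 genes, so the numbers are not taken to pair the libraries. The 6 genes had been selected on these libraries, so the stable counts were largely fixed in advance. The planned count model on recovered reads was not run, because the reads are an inference from the step of the values. Differences between the 6 genes rest on 3 libraries per group and on 62 to 441 reads a value. The shares of library spread and read number in their error were not tested.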

Other observations

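3 further lower genes with a known link to replication or centromeres lay outside the lists and were picked out after their values were seen, from the lower side of the table, and their differences are a description. FAM111B, a protease of the family of the replication-associated FAM111A (chromosome 11, 59107185 to 59127410, plus strand), had 133.1, 113.4 and 115.8 normalised read counts in DMSO and 61.5, 76.0 and 42.1 with ginkgolic acid. Its log2 fold change of -1.04 (SE 0.21) lay in the range of the 6 genes, and its groups did not overlap. CENPS, a histone-fold protein of the inner kinetochore and of the Fanconi anaemia pathway (chromosome 1, 10430443 to 10442809, plus strand), had 50.0, 32.4 and 45.9 in DMSO and 19.1, 21.7 and 15.8 with ginkgolic acid. Of its exon bases 64.7% are shared with the read-through gene CENPS-CORT in the same orientation, and its reads are therefore uncertain. MIR17HG, the host transcript of the miR-17-92 cluster, a known target of E2F and MYC (chromosome 13, 91347820 to 91354579, plus strand), had 49.0, 37.2 and 35.9 in DMSO and 25.4, 11.9 and 20.2 with ginkgolic acid. These low counts gave it a wide SE of 0.29 around a log2 fold change of -1.09. A replication-dependent histone gene, HIST2H4A, which has a near-identical copy and so uncertain reads, was on the higher side, also noticed after its values were seen. It had 5.005, 7.63 and 3.99 in DMSO and 32.9, 17.4 and 5.27 with ginkgolic acid, and the groups overlapped. The authors' deposited table gave it a log2 fold change of 1.72 with an adjusted p-value of 0.048.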
